A study of Homo sapiens with 15 samples.

Results

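The 33 genes described here encode enzymes of cholesterol and fatty acid synthesis together with the proteins that control them. They were taken as a fixed list of symbols, not by a cut on their values, but with earlier results of these data known. They comprise 8 genes of the mevalonate arm, 12 genes from squalene to cholesterol, 6 regulators and sterol carriers and 7 genes of fatty acid synthesis and desaturation. Of the 33, 32 were found among the 57773 genes of the count files, and all 32 were among the 13085 genes that passed the filter on low counts. ACACA, the cytosolic acetyl-CoA carboxylase, was not matched to a row and has no value here.

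RNA was sequenced from the femoral bone marrow of SCID-beige mice, collected when the animals became paralysed. These mice lack T and B cells and had received an intravenous injection of MM.1S, a human multiple myeloma cell line that here carried GFP and luciferase. The 15 libraries fall into 5 groups of 3, from 5 mice treated per group. The control group is labelled PBS, and its protocol describes weekly intravenous saline. The bortezomib group received this proteasome inhibitor at 0.25 mg/kg, intraperitoneally, once a week. The elesclomol group received this copper-binding compound at 25 mg/kg under the skin, on every 3rd day in the wording of the protocol. The combination group received both agents, and in the delayed group elesclomol was added 14 days after inclusion. Dosing continued until the endpoint, so the tumours were all taken late, and the time from the last dose to collection was not given for single mice.

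In a bulk sample of this kind, fewer cells of a type and less RNA per cell cannot be told apart. Totals ran from 4500326 to 13161087 counts per library, and the 3 delayed libraries were the deepest. All 9 myeloma markers listed were found, with summed levels of 6161 to 7538 counts per 1000000 (CPM) in every library. Adipocyte markers, which would carry lipid genes of their own, summed to at most 1.82 CPM, with LEP and CIDEA at 0 throughout. Stromal and bone markers summed to between 80 and 113 CPM in PBS and between 93.9 and 211 CPM in the treated libraries, highest in delayed 2, and their part in the values below was not tested. Elesclomol 1 carried more erythroid (336 CPM against at most 37.0 in the others) and granulocyte transcripts (143 CPM against at most 33.7). The adipocyte, stromal, erythroid and granulocyte sums are counts on human genes, while the host is mouse. As the handling of mouse reads was not given, low sums do not show that host cells were few. Bortezomib 1, combination 1 and delayed 2 stood apart in base composition. Across genes, the correlation of a library's deviation with gene GC content was 0.51, 0.49 and 0.32 in these 3 libraries, against -0.35 to -0.29 in the PBS libraries. The other treated libraries ran from -0.31 (bortezomib 2) to 0.16 (elesclomol 3), all but bortezomib 2 above every PBS library. Leaving out the 3 libraries therefore does not remove the difference in base composition from PBS.

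Cells make cholesterol from acetyl-CoA through mevalonate, isoprenoids, squalene and lanosterol. When sterols in the endoplasmic reticulum run low, SCAP carries the SREBP transcription factors to the Golgi, where they are cut and released to switch on most of these genes. INSIG1 and INSIG2 hold SCAP back when sterols are plentiful. Myeloma cells, which secrete much protein, use the pathway for membranes and for the isoprenoid groups attached to small GTPases. Acetyl-CoA is also the starting point of fatty acid synthesis.

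The pathway was well expressed in the PBS tumours. To compare genes, CPM were divided by the exon length of each gene in kilobases. The median over the 32 genes was 16.3 CPM per kilobase, against 4.22 for the 12794 tested genes with a length, and 25 of the 32 lay above the latter. INSIG1 stood highest at 203 ± 11.3 CPM per kilobase (SD, n = 3), above 99.4% of tested genes. It was followed by MSMO1, the C4-methylsterol oxidase, at 84.3 ± 7.35 CPM per kilobase and FDPS, farnesyl diphosphate synthase, at 79.7 ± 3.68 CPM per kilobase, whose library values overlapped. EBP, the sterol isomerase, at 53.7 ± 3.56 CPM per kilobase and HMGCS1, which makes HMG-CoA, at 52.4 ± 3.21 CPM per kilobase overlapped as well.

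At the other end, SQLE, squalene epoxidase, reached 0.413 ± 0.112 CPM per kilobase in the PBS tumours, above 6.9% of tested genes. Its neighbours in the pathway were far higher, with FDFT1, squalene synthase, at 45.2 ± 2.48 CPM per kilobase and LSS, lanosterol synthase, at 36.4 ± 2.07 CPM per kilobase. SQLE had between 2 and 38 counts per library over the whole experiment. FADS2, the delta-6 desaturase, was also low at 0.507 ± 0.118 CPM per kilobase, while its genomic neighbour FADS1, the delta-5 desaturase, stood at 8.58 ± 0.549 CPM per kilobase. Of the 2 SREBP genes, SREBF2 was at 27.5 ± 1.65 CPM per kilobase and SREBF1 at 1.92 ± 0.206 CPM per kilobase, with no overlap between their libraries. CYP51A1, lanosterol demethylase, was listed at 2.62 ± 0.622 CPM per kilobase. In the GENCODE 29 annotation 79.4% of its exon bases are shared with other genes on the same strand, so its level depends on how the authors' counting treated shared bases.

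**Figure D1:**
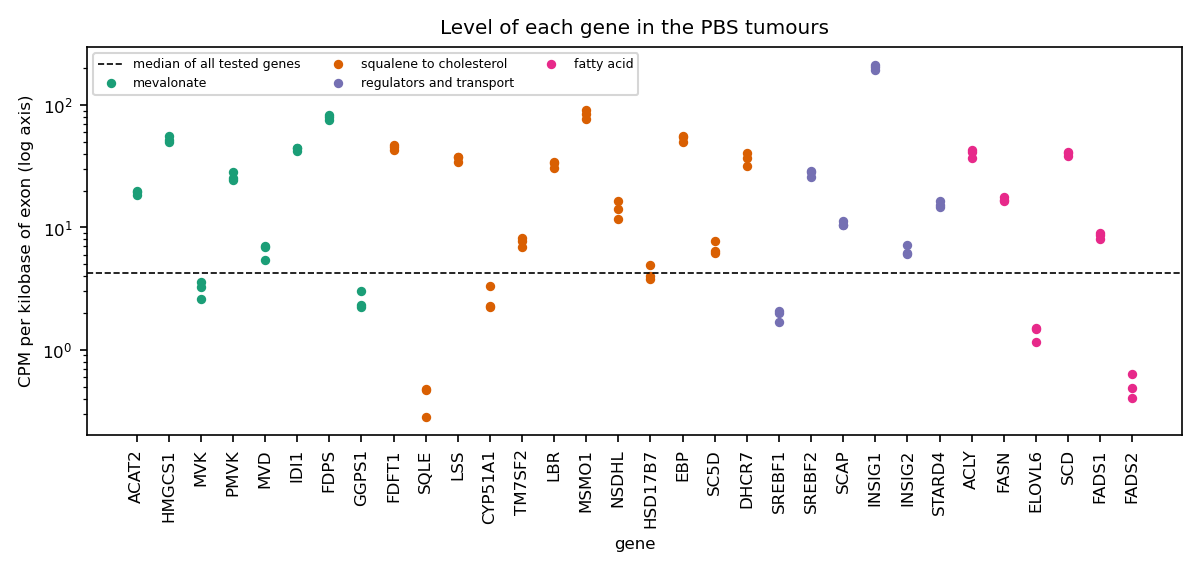
Level of each of the 32 genes in the 3 PBS libraries (points), in CPM per kilobase of exon on a log axis, coloured by role, with the median of all tested genes dashed. INSIG1 lies highest and SQLE and FADS2 lowest, and 25 of the 32 genes lie above the dashed line on their means.

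Each treated group was then compared with PBS, which asks whether either drug, or their sequence, shifted the pathway in the tumours. The 4 comparisons share the 3 PBS libraries. No member passed an adjusted p of 0.05 in any of them by the quasi-likelihood test of edgeR, adjusted by Benjamini-Hochberg over all tested genes. The background was equally sparse in that test, at 0% of tested genes with bortezomib, 0.0688% with elesclomol, 0% with the combination and 0% in the delayed group. DESeq2 called no member either, against 0.0688%, 0.375%, 0.432% and 0.414% of the genes it tested in the same order.

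The changes were small. The 95% interval of the log2 change lay within 2-fold in either direction for 29 of the 32 genes in each of the 4 comparisons. The median log2 change of the members was 0.05 with bortezomib, -0.11 with elesclomol, -0.06 with the combination and -0.01 in the delayed group, beside 0.02, 0.00, 0.01 and 0.01 over all tested genes. At an unadjusted p of 0.05, bortezomib had 3 members higher and 0 lower, where 10.6% of all tested genes passed. The count was 0 higher and 3 lower with elesclomol (8.07% of all tested genes), 0 higher and 1 lower with the combination (13.6%) and 0 higher and 1 lower in the delayed group (11.1%).

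**Figure D2:**
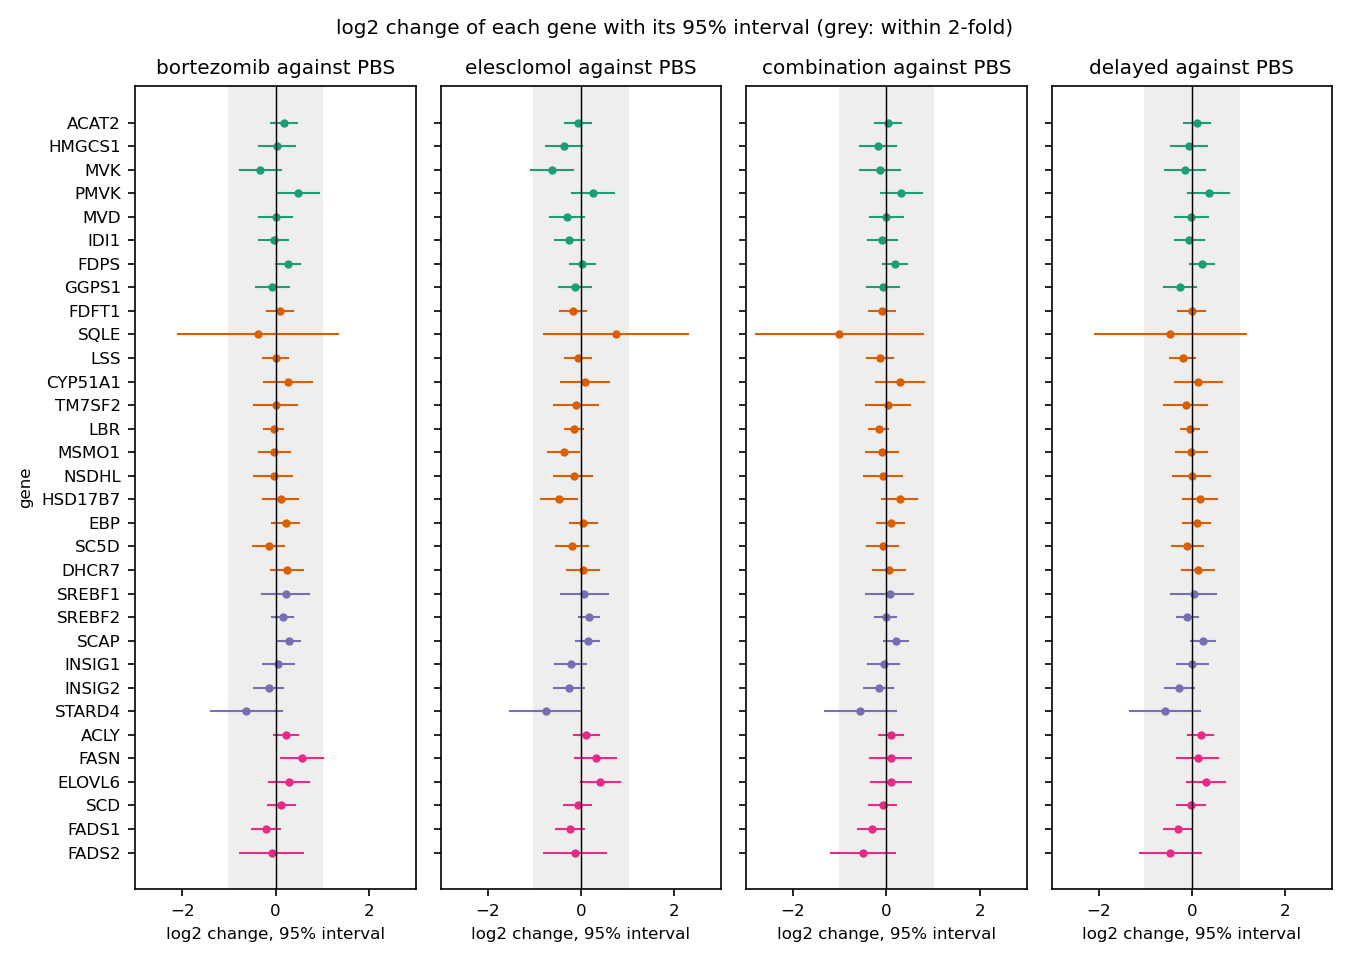
log2 change of each gene against PBS (points) with its 95% interval (lines) in the 4 comparisons, coloured by role as in the plot of levels, with changes within 2-fold shaded. Most intervals lie inside the shading, SQLE has the widest and STARD4 lies left of 0 in every panel.

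Libraries were also set side by side without a model. With elesclomol, 12 of the 32 members had no overlap between the 3 treated and the 3 PBS libraries, where 19.8% of all tested genes had none. The 9 lower ones were HMGCS1, MVK, IDI1, LBR, MSMO1, HSD17B7, INSIG1, STARD4 and FADS1, and the 3 higher ones were SREBF2, FASN and ELOVL6. Without overlap were 6 members with bortezomib (20.2% of all tested genes), 4 with the combination (22.2%) and 5 in the delayed group (27.5%), shares below the background. In all 3 elesclomol libraries the members' median deviation from the PBS mean was between -0.11 and -0.08. PBS 2, at -0.09, and combination 1 and 2, at -0.09 and -0.10, lay in the same range, while PBS 1 was at 0.08. Delayed 3 stood out on the other side at 0.28, with 25 of 32 members above the PBS mean, while delayed 1 and delayed 2 were at -0.11 and -0.16.

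**Figure D3:**
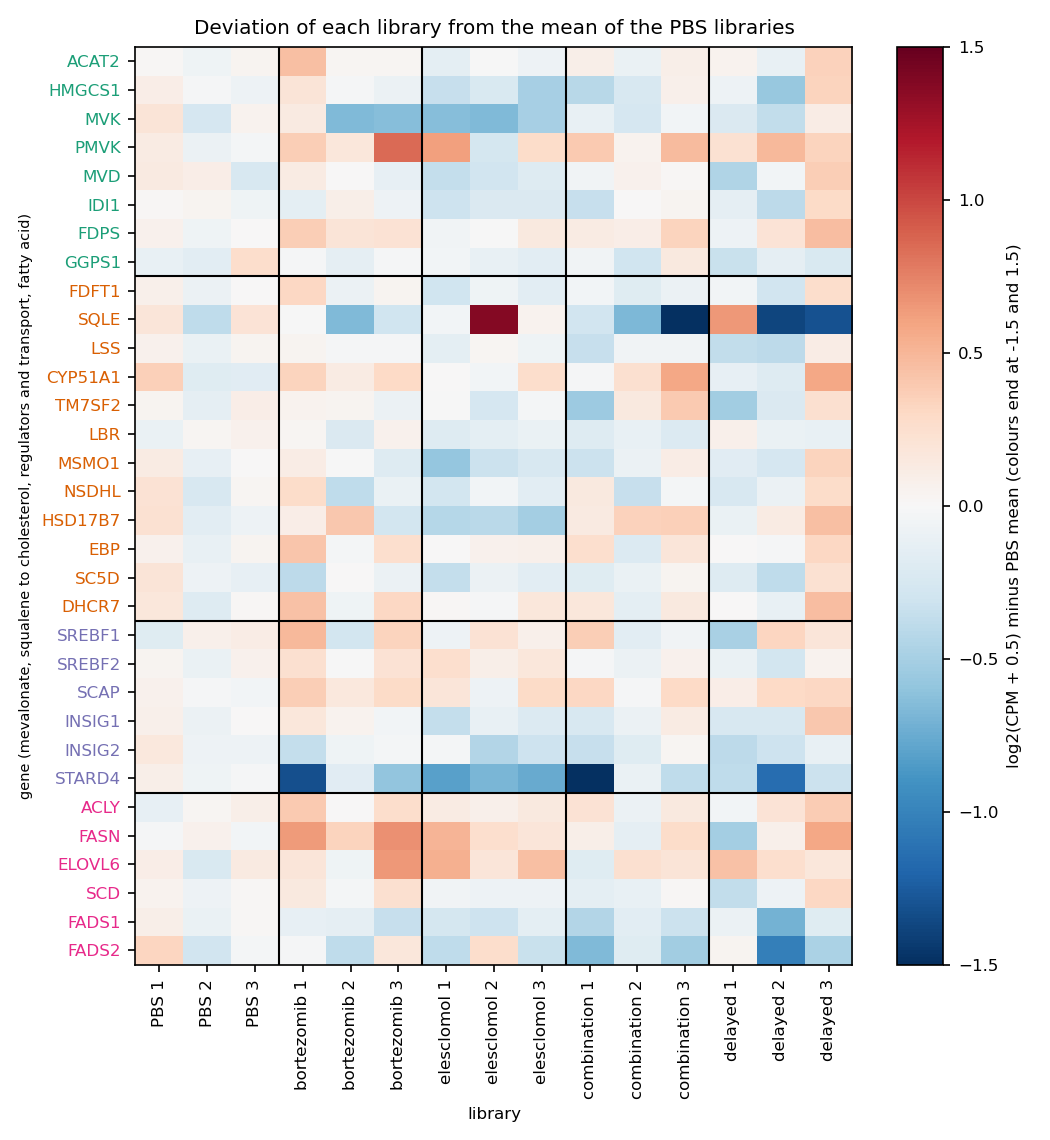
Deviation of log2(CPM + 0.5) from the PBS mean for 32 genes (rows, coloured by role) in the 15 libraries (columns), with colours ending at -1.5 and 1.5. The 3 elesclomol libraries are mostly blue in the mevalonate and sterol rows, delayed 3 is mostly red, and the STARD4 row is blue in every treated library.

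Within the mevalonate arm, MVK (ENSG00000110921), mevalonate kinase, measured 23.3, 16.9 and 21.1 CPM in the PBS libraries and 12.8, 12.6 and 14.2 CPM with elesclomol. It measured 22.3, 12.6 and 12.8 CPM with bortezomib, 18.7, 17.0 and 19.6 CPM with the combination and 17.4, 15.6 and 22.0 CPM in the delayed group. Elesclomol libraries all lay below PBS, and the combination overlapped PBS. Bortezomib split into 1 library at the PBS level, bortezomib 1, which stood apart in base composition, and 2 low ones. The log2 change with elesclomol was -0.62 ± 0.21 (SE; edgeR adjusted p = 0.478), the smallest p of any member in the 4 comparisons with PBS. Without elesclomol 1, the library with the erythroid and granulocyte transcripts, it was -0.60 ± 0.24. With bortezomib the log2 change was -0.33 ± 0.21 (edgeR adjusted p = 0.527). It was -0.67 ± 0.17 without bortezomib 1, combination 1 and delayed 2. After a correction of each library for gene GC content and length it was -0.48 ± 0.18. The same fits gave -0.61 ± 0.15 and -0.72 ± 0.19 with elesclomol.

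HMGCS1 (ENSG00000112972) was 263, 244 and 233 CPM in the PBS libraries, 282, 244 and 231 CPM with bortezomib and 193, 210 and 175 CPM with elesclomol. It was 185, 208 and 259 CPM with the combination and 233, 166 and 310 CPM in the delayed group. Only the elesclomol libraries were all below PBS, and the delayed libraries held both the lowest and the highest value of the experiment. The change with elesclomol was -0.36 ± 0.18 on the log2 scale (edgeR adjusted p = 0.67).

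PMVK (ENSG00000163344), phosphomevalonate kinase, was higher in most treated libraries. It measured 36.1, 30.9 and 32.2 CPM in PBS, 42.9, 37.2 and 59.9 CPM with bortezomib, 51.0, 27.4 and 40.1 CPM with elesclomol, 43.4, 34.3 and 45.9 CPM with the combination and 38.7, 46.3 and 41.7 CPM in the delayed group. Bortezomib and delayed libraries all lay above PBS, and the other 2 groups overlapped it. Its log2 change with bortezomib was 0.49 ± 0.21 (edgeR adjusted p = 0.457), and limma voom with library quality weights called it at 0.72 ± 0.17 (adjusted p = 0.0343), a test that called 5.48% of all genes. The edgeR estimate was 0.28 without bortezomib 3, the highest library.

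FDPS (ENSG00000160752) measured 309, 282 and 297 CPM in PBS, 381, 338 and 345 CPM with bortezomib, 285, 295 and 328 CPM with elesclomol, 321, 318 and 374 CPM with the combination and 281, 340 and 408 CPM in the delayed group. Its bortezomib and combination libraries lay above all PBS libraries, with log2 changes of 0.26 ± 0.12 and 0.19 ± 0.12 (edgeR adjusted p = 0.471 and 0.487). They were 0.12 ± 0.12 and 0.04 ± 0.12 after a correction of each library for gene GC content and length. FDPS has 8 named pseudogenes, between which the authors' counting could split reads. The 4 other genes of the arm, ACAT2, MVD, IDI1 and GGPS1, had log2 changes between -0.29 and 0.19 in the 4 comparisons, with no unadjusted p below 0.108. For ACAT2, 52.3% of exon bases lie opposite other genes, and for GGPS1 37.3% are shared with TBCE on the same strand, so both levels are uncertain.

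In the sterol arm, MSMO1 (ENSG00000052802) measured 265, 223 and 244 CPM in PBS, 262, 243 and 213 CPM with bortezomib, 163, 195 and 206 CPM with elesclomol, 194, 229 and 264 CPM with the combination and 216, 205 and 307 CPM in the delayed group. Elesclomol libraries were all below PBS, lowest in elesclomol 1, and the other groups overlapped PBS. The log2 change with elesclomol was -0.37 ± 0.16 (edgeR adjusted p = 0.588). It was -0.28 ± 0.17 without elesclomol 1 and -0.21 ± 0.18 after the correction for GC content and length.

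HSD17B7 (ENSG00000132196), the sterol 3-keto reductase, measured 14.9, 15.1 and 14.0 CPM with elesclomol, against 23.7, 18.1 and 19.2 CPM in PBS. It measured 21.6, 26.8 and 16.6 CPM with bortezomib, 22.3, 25.7 and 26.0 CPM with the combination and 18.8, 22.1 and 27.7 CPM in the delayed group. Every elesclomol library lay below each of the 12 others. Against PBS the log2 change was -0.46 ± 0.18 with elesclomol (edgeR adjusted p = 0.547) and 0.28 ± 0.18 with the combination (edgeR adjusted p = 0.468). Reads could be shared with the pseudogenes HSD17B7P1 and HSD17B7P2.

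LBR (ENSG00000143815), which carries sterol reductase activity at the inner nuclear membrane, varied little. It was 161, 176 and 180 CPM in PBS, 175, 148 and 180 CPM with bortezomib, 151, 155 and 160 CPM with elesclomol, 151, 159 and 149 CPM with the combination and 182, 161 and 159 CPM in the delayed group. Elesclomol and combination libraries lay just below PBS, with log2 changes of -0.15 ± 0.10 and -0.17 ± 0.10 (edgeR adjusted p = 0.737 and 0.428). After the correction for GC content and length the changes were 0.00 ± 0.19 and 0.16 ± 0.19, so the direction with the combination turned.

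SQLE (ENSG00000104549) had few counts in all groups, at 2.03, 1.22 and 2.08 CPM in PBS, 1.73, 0.914 and 1.32 CPM with bortezomib, 1.68, 5.32 and 1.83 CPM with elesclomol, 1.33, 0.902 and 0.282 CPM with the combination and 3.01, 0.365 and 0.405 CPM in the delayed group. Elesclomol 2 was the highest library and combination 3 the lowest. The intervals were wide, from -2.79 to 0.78 on the log2 scale for the combination against PBS, which includes a 2-fold decrease. The delayed libraries, the deepest, held 36, 4 and 5 counts, and the part of depth in the width of the intervals was not tested. The 8 remaining genes of the arm, FDFT1, LSS, CYP51A1, TM7SF2, NSDHL, EBP, SC5D and DHCR7, had log2 changes between -0.20 and 0.29 against PBS and no unadjusted p below 0.126.

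Among the regulators, STARD4 (ENSG00000164211), a soluble carrier that moves cholesterol between membranes and is itself an SREBP target, was lower than PBS in every treated library. It measured 93.5, 84.0 and 86.7 CPM in PBS, 35.1, 78.2 and 58.0 CPM with bortezomib, 50, 54.6 and 52.1 CPM with elesclomol, 30.1, 81.9 and 67.3 CPM with the combination and 67.7, 39.5 and 70.1 CPM in the delayed group. The elesclomol libraries were close together, while the other treated groups each held 1 very low library, which were bortezomib 1, combination 1 and delayed 2, the 3 libraries that stood apart in GC content. Exons of STARD4 have a GC content of 34.2%, the lowest of the 32 genes.

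Fitted over all 15 libraries, the log2 change of STARD4 was -0.63 ± 0.35 with bortezomib, -0.75 ± 0.35 with elesclomol, -0.56 ± 0.35 with the combination and -0.57 ± 0.35 in the delayed group (edgeR adjusted p = 0.499, 0.623, 0.473 and 0.511). Fitted on the elesclomol and PBS libraries only, the estimate was the same size with a smaller error, -0.74 ± 0.09, and passed at an edgeR adjusted p of 0.000414, where 1.16% of tested genes passed. Leaving out the 3 libraries that stood apart gave -0.74 ± 0.11 for elesclomol (edgeR adjusted p = 0.00318, where 0.358% of genes passed). The other 3 changes shrank without those libraries, to -0.37 ± 0.12 with bortezomib, -0.23 ± 0.12 with the combination and -0.34 ± 0.12 in the delayed group. After the correction for GC content and length, the change with elesclomol was -0.51 ± 0.12, and those of the other groups lay between -0.24 and -0.16. The part of base composition in the lower STARD4 of the elesclomol group was not tested beyond these fits.

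The SREBP genes themselves differed little from PBS. SREBF2 (ENSG00000198911), whose product acts mainly on sterol genes, measured 213, 194 and 217 CPM in PBS, 245, 207 and 242 CPM with bortezomib, 247, 220 and 234 CPM with elesclomol, 206, 195 and 217 CPM with the combination and 194, 171 and 215 CPM in the delayed group. Elesclomol libraries all lay above PBS, at a log2 change of 0.17 ± 0.10 (edgeR adjusted p = 0.73; 0.06 ± 0.10 after the correction for GC content and length), and the other groups overlapped it. SREBF1 (ENSG00000072310), which acts mainly on fatty acid genes, measured 13.5, 16.2 and 16.6 CPM in PBS, 21.7, 12.6 and 19.5 CPM with bortezomib, 14.6, 17.9 and 16.2 CPM with elesclomol, 20, 13.7 and 14.8 CPM with the combination and 10.8, 19.4 and 17.5 CPM in the delayed group. All 4 treated groups overlapped PBS, and the log2 changes lay between 0.04 and 0.22.

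SCAP (ENSG00000114650) measured 72.0, 67.8 and 67.0 CPM in PBS, 89.0, 77.2 and 84.2 CPM with bortezomib, 78.5, 65.2 and 84.4 CPM with elesclomol, 85.3, 67.8 and 84.8 CPM with the combination and 73.9, 84.8 and 85.8 CPM in the delayed group. Bortezomib and delayed libraries lay above PBS, with log2 changes of 0.28 ± 0.12 and 0.24 ± 0.12 (edgeR adjusted p = 0.458 and 0.454). These were 0.12 ± 0.09 and 0.14 ± 0.09 after the correction for GC content and length. Its partner INSIG1 (ENSG00000186480) measured 783, 700 and 744 CPM in PBS, 835, 769 and 720 CPM with bortezomib, 578, 688 and 644 CPM with elesclomol, 630, 700 and 805 CPM with the combination and 629, 626 and 982 CPM in the delayed group. Only the elesclomol libraries of INSIG1 all lay below PBS, at a log2 change of -0.22 ± 0.16 (edgeR adjusted p = 0.77), and delayed 3 was the highest of the 15.

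INSIG2 (ENSG00000125629), the second anchor of SCAP, was 28.4, 24.1 and 24.2 CPM in PBS, 19.8, 24.4 and 24.9 CPM with bortezomib, 25.0, 18.6 and 20.5 CPM with elesclomol, 20, 22.5 and 26.1 CPM with the combination and 19.3, 20.4 and 23.6 CPM in the delayed group. Delayed libraries all lay below PBS, at a log2 change of -0.27 ± 0.14 (edgeR adjusted p = 0.473), and the other groups overlapped. After the correction for GC content and length this change turned to 0.10 ± 0.20.

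In the fatty acid arm, FASN (ENSG00000169710), fatty acid synthase, had the smallest p with bortezomib. It measured 158, 167 and 155 CPM in PBS and 249, 202 and 257 CPM with bortezomib, then 228, 190 and 181 CPM with elesclomol, 170, 146 and 193 CPM with the combination and 112, 168 and 240 CPM in the delayed group. Both single agents had all 3 libraries above PBS, whereas the combination overlapped PBS and the delayed libraries ranged from the lowest value of the experiment to among the highest. The log2 change was 0.56 ± 0.21 with bortezomib (edgeR adjusted p = 0.449) and 0.32 ± 0.21 with elesclomol (edgeR adjusted p = 0.742). With elesclomol it was 0.21 ± 0.23 without elesclomol 1 and 0.21 ± 0.19 after the correction for GC content and length. FASN with bortezomib was called by limma voom at 0.63 ± 0.15 (adjusted p = 0.0361, where 5.48% of genes passed). It was also called by edgeR with no filter on low counts at 0.57 ± 0.13 (adjusted p = 0.00805, where 0.217% of genes passed). Fitted on bortezomib and PBS only, the change was 0.54 ± 0.11 (edgeR adjusted p = 0.274). It was 0.45 ± 0.19 after the correction for GC content and length. Without bortezomib 1, combination 1 and delayed 2 it was 0.52 ± 0.28.

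SCD (ENSG00000099194), the stearoyl-CoA desaturase, differed less from PBS with either single agent than FASN did. Delayed 1 was the lowest library of both genes. It was 222, 204 and 218 CPM in PBS, 238, 210 and 253 CPM with bortezomib, 206, 204 and 203 CPM with elesclomol, 193, 198 and 218 CPM with the combination and 166, 204 and 267 CPM in the delayed group. All 4 treated groups overlapped PBS, and the log2 changes lay between -0.08 and 0.12.

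FADS1 (ENSG00000149485) measured 93.0, 81.8 and 88.4 CPM in PBS, 80.4, 80 and 68.7 CPM with bortezomib, 73.1, 70.3 and 79.0 CPM with elesclomol, 64.5, 78.3 and 70.2 CPM with the combination and 82.4, 53.4 and 77.4 CPM in the delayed group. All treated libraries but delayed 1 lay below the lowest PBS library. The log2 change was -0.31 ± 0.14 with the combination and -0.30 ± 0.14 in the delayed group (edgeR adjusted p = 0.36 and 0.45). Without the 3 GC-rich libraries, of which delayed 2 had the lowest FADS1, the change in the delayed group was -0.12 ± 0.10. ACLY, ELOVL6 and FADS2 had log2 changes between -0.50 and 0.41 against PBS, and the smallest unadjusted p among them was 0.0548, for ELOVL6 with elesclomol.

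**Figure D4:**
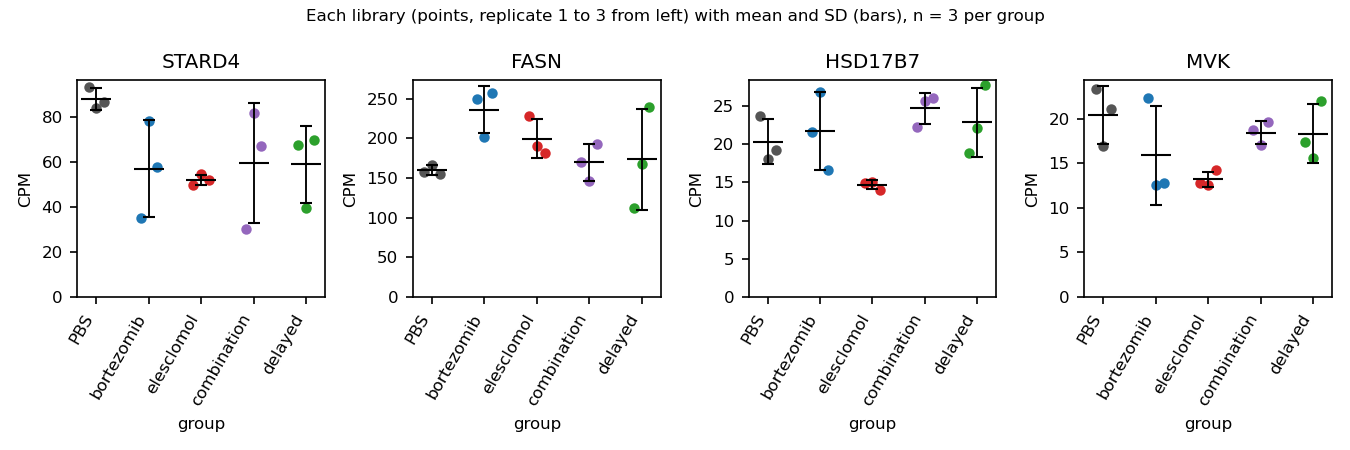
CPM of STARD4, FASN, HSD17B7 and MVK in each library (points, replicates 1 to 3 from left), with group mean and SD (bars, n = 3). STARD4 is below PBS in all 12 treated libraries, FASN is highest with bortezomib, and the elesclomol libraries of HSD17B7 lie below all others.

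Adding the second drug was examined by setting the combination against each single agent. Against bortezomib, no member was called by edgeR (0% of all tested genes), by DESeq2 (0.00765%) or by limma voom (0.298%), and at an unadjusted p of 0.05 there were 0 members higher and 1 lower, where 4.23% of genes passed. The lower one was FASN, at -0.48 ± 0.21 on the log2 scale (edgeR adjusted p = 0.999), and 2 members, LSS and FASN, had no overlap between the groups (8.19% of all tested genes). All 6 measured fatty acid genes were estimated lower than with bortezomib, between -0.48 and -0.11. So were 25 of the 32 members, where 47.3% of all tested genes were above 0. ELOVL6 and FADS1 changed sign in 1 alternative each. The members' median was -0.13 against -0.01 over all tested genes.

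Against elesclomol, the 8 mevalonate genes were all estimated higher in the combination, between 0.05 and 0.48 on the log2 scale, and the 6 fatty acid genes all lower, between -0.36 and -0.01, where 48.9% of all tested genes were above 0. Several of these estimates lay near 0 and changed sign in at least 1 alternative, namely PMVK and GGPS1 in the first arm and SCD, ACLY and FADS1 in the second. None was called by edgeR (0% of all tested genes) or DESeq2 (0.405%), and 29 of the 32 intervals lay within 2-fold. HSD17B7 came nearest, at 0.75 ± 0.18 (edgeR adjusted p = 0.156), with each combination library above each elesclomol library. It passed in limma voom at 0.80 ± 0.17 (adjusted p = 0.0375, where 1.37% of genes passed) and in edgeR with no filter on low counts at 0.76 ± 0.16 (adjusted p = 0.00102, where 0.83% of genes passed). SQLE, with its few counts, passed only in the latter, at -1.74 ± 0.46 (adjusted p = 0.027). At an unadjusted p of 0.05, 2 members were higher and 1 lower (12.2% of all tested genes), and 5 members had no overlap (16%).

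Delayed and simultaneous addition of elesclomol were compared next, and no member was found to differ. No member was called by edgeR (0% of all tested genes), DESeq2 (0%) or limma voom (0%), none passed at an unadjusted p of 0.05 (2.63% of genes) and none was free of overlap (7.59% of genes). The intervals of 31 of the 32 members lay within 2-fold, and SQLE was the exception. Members' values in the delayed group depended on delayed 3, as the median against PBS was -0.01 with it and -0.19 without it.

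The interaction of the drugs asks whether the change in the combination differed from the sum of the single-agent changes. By edgeR no member was called (0.00764% of all tested genes), by DESeq2 none (0.245%), and at an unadjusted p of 0.05 there were 2 members above and 3 below the sum (8.79% of genes). MVK lay above it, at 0.81 ± 0.29 (edgeR adjusted p = 0.465), and FASN below it, at -0.80 ± 0.29 (edgeR adjusted p = 0.471). HSD17B7 was above at 0.64 ± 0.25, and SREBF2 and ELOVL6 were below at -0.34 ± 0.15 and -0.60 ± 0.28 (edgeR adjusted p = 0.486, 0.539 and 0.559). Limma voom called MVK at 1.05 ± 0.25 (adjusted p = 0.0451, where 2.19% of genes passed), and edgeR with no filter called FASN at -0.79 ± 0.18 (adjusted p = 0.00505, where 0.362% passed). Without the 3 GC-rich libraries, edgeR called STARD4 at 0.88 ± 0.17 (adjusted p = 0.035, where 0.35% passed). In the comparisons with PBS, limma voom called no member with elesclomol, with the combination or in the delayed group, where it called 0.39%, 10.8% and 1.2% of all genes.

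How the members varied together from tumour to tumour was described by the correlation with INSIG1, the member with the highest level, over log2(CPM + 0.5) in the 15 libraries, and 13084 genes were compared. MSMO1 had the highest correlation with INSIG1 of all genes (Pearson's r = 0.93, permutation p = 1e-05, adjusted p = 0.0654, Spearman's rho = 0.90, permutation p = 3e-05, adjusted p = 0.393). HMGCS1 was second (r = 0.87, permutation p = 1e-05, adjusted p = 0.0654, rho = 0.84, permutation p = 0.00022, adjusted p = 1). The value 1e-05 is the smallest that 100000 permutations can give, and no gene passed an adjusted p of 0.05. With only MSMO1 and HMGCS1 at this floor among 13084 genes, their adjusted p could not fall below 0.0654, however strong the correlation. The adjusted p of Pearson's r therefore cannot decide on these genes. Next in rank came IDI1, isopentenyl diphosphate isomerase (r = 0.81), and FDFT1 (r = 0.80).

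Of the 31 other members, 16 had r above 0.5, where 1.64% of all genes did, and the median r was 0.56 against 0.01 over all genes. At the other end were SQLE at -0.34, ELOVL6 at -0.25, PMVK at -0.09 and LBR at 0.03, and SREBF2 itself was at 0.17. These values describe libraries that share treatments, depth and base composition. With group means subtracted, MSMO1 was at 0.95, HMGCS1 at 0.83 and LSS at 0.94, and 17 members were above 0.5. Leaving out delayed 3 and elesclomol 1, the libraries farthest from the INSIG1 median, gave 0.88, 0.85 and 0.77, with 13 members above 0.5. Without the 3 GC-rich libraries 17 members were above 0.5, with MSMO1 at 0.93. After the correction for GC content and length the count was also 17, but MSMO1 was at 0.57 while IDI1 stood at 0.87 and HMGCS1 at 0.76.

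**Figure D5:**
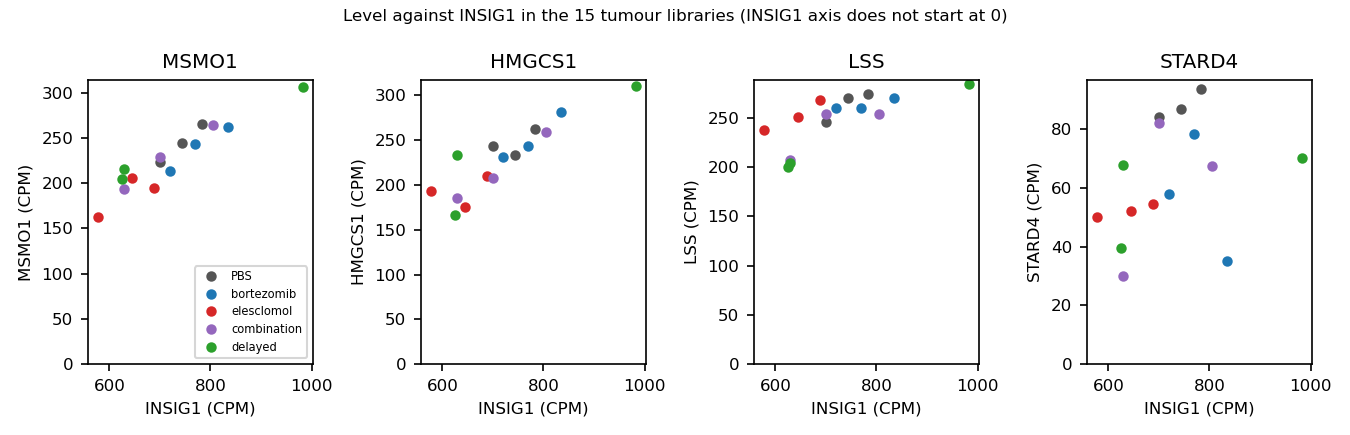
CPM of MSMO1, HMGCS1, LSS and STARD4 against CPM of INSIG1 in the 15 libraries, coloured by group; the INSIG1 axis does not start at 0. MSMO1 and HMGCS1 climb with INSIG1 from elesclomol 1 to delayed 3 (r = 0.93 and 0.87), whereas STARD4 is scattered (r = 0.34).

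To show the sequence before these genes, the letters of their promoters were read, for INSIG1, for MSMO1 and LSS, which varied with it, and for STARD4, which was lower in all treated libraries. The sequences are the 250 bases before the RefSeq start in GRCh38.p14, 5′ to 3′ on the strand of the gene. Capitals mark matches on either strand to CACNCCAC, the core of the sterol regulatory element, to CCAAT, the box bound by NF-Y, and to the E-box CACGTG. INSIG1 lies at chr7:155297628-155297877 on the plus strand, MSMO1 at chr4:165327419-165327668 on the plus strand, LSS at chr21:46228775-46229024 on the minus strand and STARD4 at chr5:111512536-111512785 on the minus strand.
INSIG1: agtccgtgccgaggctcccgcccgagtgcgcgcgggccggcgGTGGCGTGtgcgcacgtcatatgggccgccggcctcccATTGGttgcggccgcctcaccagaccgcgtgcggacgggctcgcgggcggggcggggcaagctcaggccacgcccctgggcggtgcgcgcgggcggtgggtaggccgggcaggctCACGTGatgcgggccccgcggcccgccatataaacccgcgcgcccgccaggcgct
MSMO1: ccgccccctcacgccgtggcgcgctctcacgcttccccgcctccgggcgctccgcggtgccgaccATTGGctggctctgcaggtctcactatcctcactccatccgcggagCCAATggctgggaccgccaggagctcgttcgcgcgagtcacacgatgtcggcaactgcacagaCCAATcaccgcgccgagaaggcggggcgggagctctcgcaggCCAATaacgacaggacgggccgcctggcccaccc
LSS: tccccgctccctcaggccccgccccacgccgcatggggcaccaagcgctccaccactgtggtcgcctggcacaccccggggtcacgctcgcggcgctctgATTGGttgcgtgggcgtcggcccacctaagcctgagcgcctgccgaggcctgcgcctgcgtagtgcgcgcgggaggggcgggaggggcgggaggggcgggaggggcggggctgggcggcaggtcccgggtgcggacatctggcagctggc
STARD4: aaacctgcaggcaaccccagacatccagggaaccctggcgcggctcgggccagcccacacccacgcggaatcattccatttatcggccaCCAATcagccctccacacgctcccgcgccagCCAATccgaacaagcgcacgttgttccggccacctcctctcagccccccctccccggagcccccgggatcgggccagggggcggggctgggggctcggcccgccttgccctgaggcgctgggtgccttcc

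INSIG1 held 1 match of each kind, the sterol element on the reverse strand beginning 208 bases before the start and the E-box 55 bases before it. MSMO1 held 4 CCAAT boxes, STARD4 held 2 and LSS held 1, and none of the 3 had the sterol element letters or the E-box in this window. The other members with a value that held CACNCCAC were IDI1 (r = 0.81 with INSIG1), SCD (r = 0.74), SC5D (r = 0.64) and SREBF2 (r = 0.17). A link between these letters and the correlation with INSIG1 was not tested. Over all members, 29 had an entry in the RefSeq table, with 41 windows. CCAAT was in 24 of the 41 windows (58.5%) against 32.0% of all 35116 windows of that length, and CACNCCAC in 6 (14.6%) against 4.87%. The longer form TCACNCCAC, which contains CACNCCAC, was in 1 member window, of SREBF2, against 0.883% of all windows. The E-box was in 4 member windows (9.76%) against 6.34%. A match is a description of letters and shows no binding.

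Genes around the pathway were counted from 4 further lists. Tested were 10 genes of SREBP processing and sterol sensing and 13 of 14 for sterol traffic. For isoprenoid use 13 were tested, and of the further fatty acid genes 15 of 17. None was called by edgeR in any comparison, where it called at most 0.0688% of all tested genes, with elesclomol against PBS. The smallest p of each list against PBS fell to MBTPS1, the site-1 protease that cuts SREBPs, at 0.30 ± 0.08 with elesclomol (edgeR adjusted p = 0.341), LPCAT3, a phospholipid acyltransferase, at 0.52 ± 0.20 with elesclomol (edgeR adjusted p = 0.556), DHDDS, a dolichol synthesis enzyme, at 0.28 ± 0.09 with the combination (edgeR adjusted p = 0.275) and ELOVL7, a fatty acid elongase, at -0.58 ± 0.16 with the combination (edgeR adjusted p = 0.245). Sterol traffic genes were estimated above 0 for 12 of 13 with bortezomib, 9 with elesclomol, 10 with the combination and 12 when delayed. Of all tested genes, 52.6%, 50.7%, 51.7% and 51.3% were above 0 in the same order. The list's medians were 0.17, 0.08, 0.12 and 0.18, beside 0.02, 0.00, 0.01 and 0.01 over all tested genes. As the comparisons share the PBS libraries, these counts are not independent of each other. Limma voom, which called 10.8% of all genes in the combination against PBS, called there 0 of the SREBP processing genes, 1 of sterol traffic (OSBP), 4 of isoprenoid use and 3 of the further fatty acid genes. DESeq2 called none of the 4 lists against PBS, where it called at most 0.432% of the genes it tested. Both DESeq2 and limma voom called MBTPS1 lower in the combination than with elesclomol, where they called 0.405% and 1.37% of the genes tested. In the interaction, limma voom called MBTPS1 and LPCAT3 below the sum of the single-agent changes, where it called 2.19% of all genes.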

How the data were processed

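Counts per gene and library were deposited by the authors as unnormalized whole numbers. Per the submitters' processing notes, STAR 2.5.4b and featureCounts 1.6.1 were used with GRCh37; the annotation release, the strand setting and the handling of mouse reads were not given in the sources used here. The library kit is stranded, per the labels' protocols. Genes listed with an identifier but no symbol held 1.07% of counts and were kept in the tests. The members and lists were chosen with earlier results of these data known.

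Genes passing edgeR's filterByExpr (minimum count 10) were tested with edgeR 4.0.16 (TMM factors, robust quasi-likelihood fit of all 15 libraries, Benjamini-Hochberg adjustment over 13085 genes, threshold 0.05) in R 4.3.3, and the script was tested on simulated data. CPM are counts per 1000000 of the TMM-scaled library size, and intervals are 95% from the fit. Error values after log2 changes are standard errors. DESeq2 1.42.0, limma 3.58.1 (voom), other filters and scalings, a GC and length correction, and leaving out libraries were alternatives. Promoters were read from RefSeq tables, and exon lengths from GENCODE 29. No set test was run.

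Given library by library are the members with the 4 smallest p against PBS in each comparison, and SREBF1, SREBF2, INSIG1, HMGCS1, SQLE, FASN and SCD. FDFT1, IDI1, LSS, EBP, CYP51A1, FADS2 and ELOVL6 are also named with values and were chosen after these were seen. The replicates are tumours by the series' description, and with 3 a group the p-values measure the spread between them. Within groups, every pair of libraries differed by more than sampling noise. The chi-square per degree of freedom was 2.17 to 3.04 between PBS libraries and 5.38 to 26 between libraries of a treated group. The PBS libraries were thus the most alike, while the fit of all 15 libraries shares its estimate of spread over the groups. Same-numbered bortezomib and combination libraries deviated together (correlations of 0.655, 0.523 and 0.118). Differently numbered libraries of different groups reached 0.473. A fit of bortezomib and combination with the replicate number as a block, a pairing taken from the data, called no member. It called 5 of the 12302 genes it tested.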

Additional observations from a re-analysis of the deposited data

How the results depend on the processing

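Results below name alternatives whose counts or medians differed from those reported. The count of members called, 0 in each comparison by edgeR over all 15 libraries, was 2 with bortezomib, 1 in the combination against elesclomol and 1 in the interaction by limma voom (5.48%, 1.37% and 2.19% of all genes). With no filter on low counts it was 1, 2 and 1 in the same comparisons (0.217%, 0.83% and 0.362%). It was 1 with elesclomol when only the compared groups were fitted (1.16%), and 1 with elesclomol and 1 in the interaction without bortezomib 1, combination 1 and delayed 2 (0.358% and 0.35%). The cause of these differences was not tested. In the other 176 of 185 refits the count was 0.

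Leaving out 1 library at a time gave members' medians from -0.01 to 0.10 with bortezomib, -0.15 to -0.05 with elesclomol, -0.13 to 0.00 with the combination, -0.19 to 0.08 in the delayed group and -0.12 to 0.10 for delayed against combination. The extremes -0.19 and -0.12 came without delayed 3. With the replicate number as a block over all 15 libraries, 0 members were called, and the median with elesclomol was -0.11. This fit called at most 9 of 13085 genes, with elesclomol against PBS. Of 30 same-number pairs, 6 deviated together by over 0.1, among them combination 3 with delayed 3 (0.369) and bortezomib 2 with elesclomol 2 (0.307). Different-number pairs reached 0.473, so these correlations do not settle whether the numbers pair the samples in any groups. The paired fit of bortezomib and combination alone, chosen after seeing the data, gave a median of -0.12 over 31 members. The INSIG1 correlations under other settings were also chosen after seeing the data. As edgeR over all 15 libraries called no member, no refits of the changes of called members were made. The changes of SQLE, with 2 to 38 counts per library, had wide intervals.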
